A study of Mus musculus with 26 samples.

Results

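Messenger RNA bound to ribosomes of D2-receptor neurons was compared between mice whose cocaine intake is labelled nonescalating and mice that took saline. The comparison held 7 of the 26 libraries of the study, and 7 of its 23 immunopurified libraries. They were chosen by title: 4 libraries from the non-escalating cocaine group (replicates 1 to 4) and 3 from the saline group (replicates 1, 3 and 4), all without withdrawal and all from 1 of the study's series of library numbers, called set A. The other immunopurified libraries were 2 from escalating cocaine mice, 9 from non-escalating mice after withdrawal and 5 from saline mice after withdrawal, and 3 libraries of unpurified input RNA completed the study. All mice were of the line Drd2-TRAP CP101, of FVB/N-Swiss Webster origin and crossed to C57BL/6 for at least 9 generations. Controls and cocaine mice therefore carried the same transgene, and both groups had intravenous self-administration in long-access sessions, with cocaine as the agent in one group and saline in the other. The labels give no dose, number of sessions, age or sex. They do not say whether a library came from 1 mouse or from a pool, so the p-values below measure the spread between libraries, part of which may be technical. The title of each of the 7 libraries also names a lower library number that it copies, in a sense the labels do not explain.

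TRAP, translating ribosome affinity purification, uses a ribosomal protein fused to a green fluorescent protein that is made in cells that use a chosen promoter, here that of the dopamine D2 receptor gene Drd2. Antibodies against the fluorescent protein pull the tagged ribosomes and their messages out of homogenised dorsal striatum. Medium spiny neurons of the indirect pathway carry the D2 receptor, an adenosine receptor (Adora2a) and enkephalin, and they oppose the direct-pathway neurons, which carry the D1 receptor, substance P and dynorphin. Cocaine blocks the dopamine transporter, and a rising dopamine level inhibits adenylyl cyclase in D2 neurons while it stimulates the enzyme in D1 neurons. Drd2 is also active in cholinergic interneurons of the striatum, so these can contribute to such a purification.

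The 7 libraries held between 6564551 and 11793565 gene counts each, and 13829 to 18283 genes were detected per library. They differed from each other in a way that the groups did not follow. The share of uniquely aligned reads that lay outside genes was 47.4%, 27.0% and 42.6% in saline libraries 1, 3 and 4 and 24.4%, 21.2%, 45.0% and 36.8% in non-escalating libraries 1 to 4. The means were 39.0% ± 10.7 (SD, n = 3) and 31.9% ± 11.1 (SD, n = 4), a difference of -7.10 percentage points that was smaller than the spread within either group (2-sided exact permutation test over 35 assignments, p = 0.371, adjusted p = 0.429 over 3 library measures). Non-escalating libraries 1 and 2 and saline library 3 had low shares, and the others had high ones. Non-escalating library 2 had the lowest share, the fewest genes detected and 1.19% of its gene counts from the ribosomal RNA gene Rn45s, against 5.69% to 10.1% in the other 6 libraries. The first principal component of log2 CPM (CPM is a gene's count relative to its library's size, here scaled with edgeR's TMM factors) held 61.4% of the variance over 10754 genes. Over the 7 libraries its score followed that share (Pearson r = -0.980, exact p = 0.000397; Spearman rho = -0.964, exact p = 0.00278; 1 relation computed), and r was -0.986 without non-escalating libraries 1 and 2, whose shares lay farthest from the median. Within the saline group and within the cocaine group there are too few libraries for a correlation of their own. Several list medians and genes are given below both with and without this share as a covariate, and the other results without it only.

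**Figure D1:**
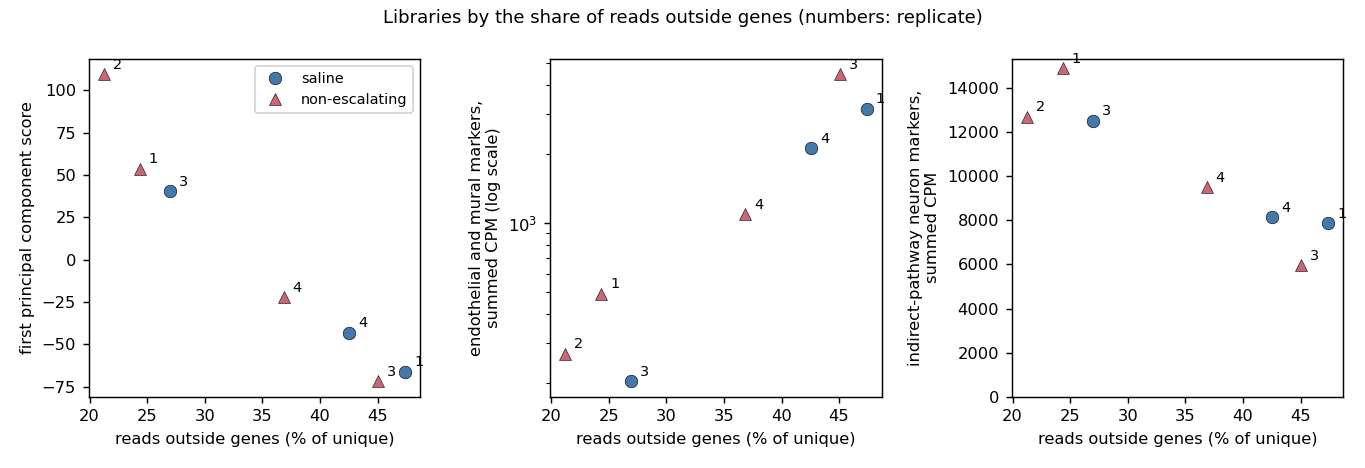
Each panel plots the 7 libraries against the percentage of uniquely aligned reads outside genes (x axis), with the first principal component score, the summed CPM of 8 endothelial and mural marker genes (log scale) and the summed CPM of 7 indirect-pathway marker genes on the y axes. Circles are saline and triangles non-escalating libraries, numbered by replicate. Libraries of both groups lie at both ends, between 21.2% and 47.4%.

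The purified cells carried the markers of indirect-pathway neurons in both groups. Drd2, the receptor gene whose promoter drives the tag, stood at 2973, 4632 and 2548 CPM in saline libraries 1, 3 and 4 and at 6694, 4303, 1840 and 3458 CPM in non-escalating libraries 1 to 4. The groups overlapped, with the highest and the lowest value both in the cocaine group. The single input libraries of saline and non-escalating mice had 444 and 541 CPM, below each of the 7 purified libraries. Drd2 did not differ between the groups beyond their spread (log2 fold change 0.27 ± 0.57 SE, 95% interval -0.91 to 1.45, adjusted p = 1 in edgeR's quasi-likelihood test with Benjamini-Hochberg adjustment). In bulk libraries fewer cells of a type and less RNA per cell cannot be told apart, here and in all that follows.

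Penk, which encodes preproenkephalin, was at 3148, 4963 and 3661 CPM in saline and at 5552, 5166, 2797 and 4018 CPM in non-escalating libraries. Adora2a, the adenosine receptor that stimulates adenylyl cyclase in these neurons, was at 1278, 1860 and 1234 CPM against 1734, 1978, 848.5 and 1288 CPM. For both genes, saline library 3 and non-escalating libraries 1 and 2 were the 3 high ones, the same libraries that had few reads outside genes. The fitted log2 fold changes were 0.16 ± 0.46 for Penk and 0.005 ± 0.57 for Adora2a. Gpr6 and Gpr52, receptors that raise cyclic AMP and are enriched in these neurons, gave 0.39 ± 0.59 and -0.08 ± 0.51. Over the 7 indirect-pathway markers the summed level ran from 7867 to 12510 CPM in saline and from 5959 to 14880 CPM in non-escalating libraries, and 5 of 7 log2 fold changes were positive. With the share of reads outside genes as a covariate, those of Drd2, Penk, Adora2a, Gpr6 and Gpr52 became -0.18, -0.19, -0.48, -0.11 and -0.53. Rpl10a, the ribosomal protein that carries the tag, was at 115, 280 and 232 CPM in saline and at 269.5, 353, 166 and 204 CPM in non-escalating libraries (0.25 ± 0.43), and the groups overlapped.

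Markers of direct-pathway and cholinergic neurons were low, and each of those named here overlapped between the groups. Drd1 was at 16.5, 14.04 and 42.6 CPM in saline and at 33.1, 16.2, 28.4 and 26.9 CPM in non-escalating libraries, against 290 and 239 CPM in the 2 inputs. Tac1, the substance P precursor, was at 4.56, 14.5 and 22.9 CPM against 21.3, 13.3, 28.0 and 21.5 CPM, with a log2 fold change of 0.59 ± 0.49. Pdyn, the dynorphin precursor, and Chat, the acetylcholine-synthesising enzyme of cholinergic interneurons, gave 0.09 ± 0.68 and 0.05 ± 0.71. The 7 direct-pathway markers summed to 74.1 to 97.7 CPM in saline and 78.1 to 109 CPM in non-escalating libraries. The 4 cholinergic markers summed to 25.1 to 35.4 CPM and 22.6 to 33.3 CPM. Slc17a7, the glutamate transporter of cortical neurons, was below 2 CPM in 4 libraries and at 25.8, 19.4 and 15.4 CPM in saline library 4 and non-escalating libraries 3 and 4.

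Genes of blood vessels varied widely between libraries of the same group. The 8 endothelial and mural markers summed to 3156, 204 and 2124 CPM in saline libraries 1, 3 and 4 and to 490.5, 268.5, 4465 and 1089 CPM in non-escalating libraries 1 to 4. The order of these sums is close to that of the share of reads outside genes. Flt1, a VEGF receptor of endothelial cells, ran from 66.7 CPM in saline library 3 to 1550 CPM in non-escalating library 3, while the 2 inputs held 24.8 and 11.3 CPM. All 7 purified libraries thus held a higher CPM of Flt1 than either input. The endothelial list had a median log2 fold change of -0.12 and none of its 8 members separated the groups. The 7 oligodendrocyte markers, which encode proteins of myelin such as Mbp, all had positive log2 fold changes, with a median of 0.40. Their sums were 233 to 276 CPM in saline and 254 to 376 CPM in non-escalating libraries. That median was 0.04 in an alternative fit, limma's voom with library weights. With the share of reads outside genes as a covariate it was 0.49, and 0.26 to 0.56 as single libraries were left out. None of the 7 had non-overlapping groups, and both inputs held more Mbp, at 328 and 593 CPM against 88.4 to 189 CPM in the purified libraries. Astrocyte markers summed to 236 to 347 CPM and 231 to 388 CPM, and microglial markers to at most 15.2 and 23.9 CPM.

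**Figure D2:**
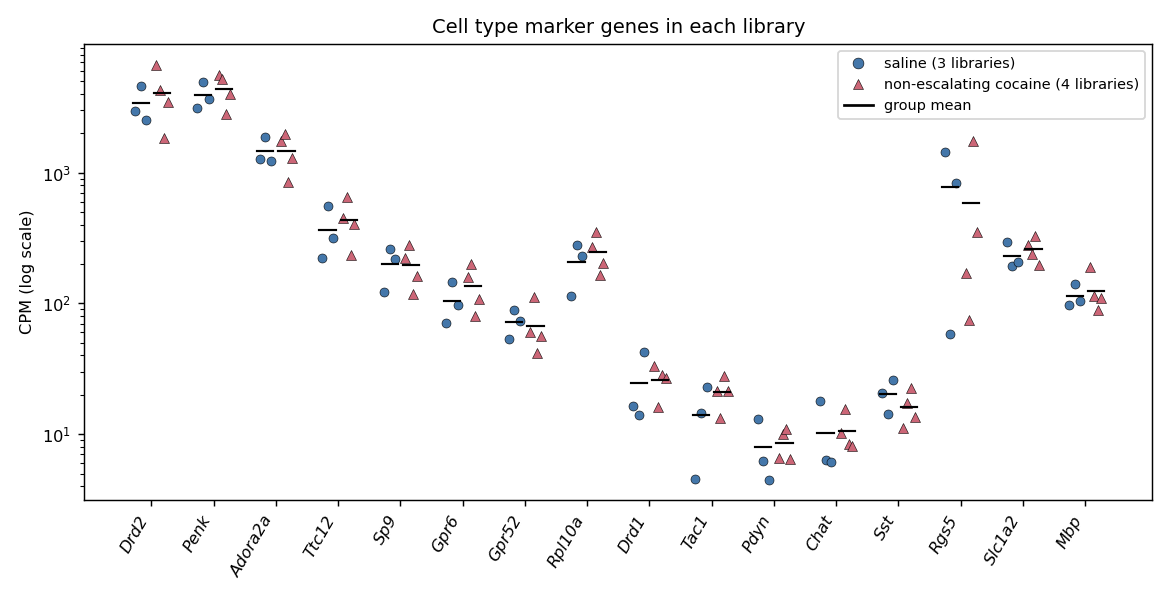
The plot gives the CPM (log scale) of 16 marker genes in each of the 3 saline libraries (circles) and 4 non-escalating libraries (triangles), with a bar at each group mean. Drd2, Penk and Adora2a stand at or above 848.5 CPM in every library, Drd1 is at most at 42.6 CPM, and Rgs5, a gene of vascular mural cells, spreads from 58.2 to 1752 CPM.

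No gene separated stable cocaine intake from saline after correction. In 1 joint fit of the 23 immunopurified libraries, edgeR's quasi-likelihood test with Benjamini-Hochberg adjustment called 0 of 16910 genes (0.0%) at an adjusted p under 0.05, and every adjusted p was 1. At an unadjusted p under 0.05 there were 357 genes (2.11% of those tested), of which 149 (0.881%) were higher and 208 (1.23%) lower with cocaine. With no differences at all, a calibrated test would put a share of about 0.05 of the genes there, more than the 2.11% seen. The count of 357 became 230 without saline library 1, 228 without non-escalating library 2 and 549 without non-escalating library 4. DESeq2 called 2 genes, 2700069I18Rik and AK166159, and limma's voom with library weights called 0, with 750 genes at an unadjusted p under 0.05. The 2 genes of the DESeq2 fit had 0 counts in each saline library. A count of 0 allows up to 0.262 to 0.346 CPM there (3 counts, counting error only, library sizes without TMM factors). The 2 genes had 16, 22, 16 and 3 counts, and 0, 3, 1 and 4 counts, in non-escalating libraries 1 to 4.

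The libraries leave room for sizeable differences. The median SE of a log2 fold change was 0.65 over all genes with an SE and 0.39 over the 6666 genes whose mean reached 20 CPM. Each SE was derived from the log2 fold change and edgeR's F statistic and not estimated separately, so the intervals are approximate. Among those 6666 genes the 95% interval lay within a 2-fold change in either direction for 3163 (47.5%), and within a 4-fold change for 6241 (93.6%). Over all 16870 genes with an interval, 3382 (20.1%) were held within 2-fold. For most genes, then, the 95% interval reached a 2-fold change in at least 1 direction.

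Genes of the dopamine and cyclic AMP cascade, the first to sense a change in dopamine, gave log2 fold changes from -0.37 to 1.08. Of 39 members tested, 0 were called and 0 reached an unadjusted p under 0.05, against 2.11% of all genes. Of the 39, 31 had positive values, and the list median was 0.10. Over all genes 49.5% were positive with a median of -0.002, and over genes of at least 20 CPM 60.1% with a median of 0.07. Ppp1r1b, which encodes the phosphatase inhibitor DARPP-32, was at 1808, 3036 and 2436 CPM in saline and at 2867, 3433, 1684 and 2334 CPM in non-escalating libraries (log2 fold change 0.09 ± 0.54). Adcy5, the main striatal adenylyl cyclase, was at 567, 1083 and 665 CPM against 936, 1170, 463 and 677 CPM (0.07 ± 0.50). In both genes the lowest and the highest library were cocaine libraries. Gnal, the stimulatory G protein of striatal neurons, had a difference of 0.08 ± 0.45, and Pde10a, the phosphodiesterase that degrades cyclic nucleotides in these cells, one of 0.13 ± 0.52. Rgs9, which speeds the inactivation of G proteins downstream of D2 receptors, had 0.17 ± 0.48. For 19 of the 39 genes the 95% interval stayed within a 2-fold change. With the share of reads outside genes as a covariate the median of the list became -0.13.

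Opioid, cannabinoid and peptide signalling genes held 1 of 25 members at an unadjusted p under 0.05 and 0 called, with 19 positive log2 fold changes and a median of 0.08, which was -0.19 with the share of reads outside genes as a covariate. At that threshold lay 2.11% of all genes, and 0.881% on the higher side. That member was Pcsk1, which encodes a convertase that cuts prohormones such as proenkephalin. It had 9, 1 and 18 counts in saline libraries 1, 3 and 4 and 188, 48, 25 and 18 counts in non-escalating libraries 1 to 4, or 0.760, 0.125 and 1.62 CPM against 18.8, 6.06, 3.57 and 1.92 CPM. All 4 cocaine libraries lay above all 3 saline libraries in CPM at low counts, and non-escalating library 1 was far above the other 3. The log2 fold change was 3.15 ± 1.39 (95% interval 0.27 to 6.04, unadjusted p = 0.0336, adjusted p = 1 in edgeR). Faah, which hydrolyses the endocannabinoid anandamide, was at 2.70, 2.51 and 1.79 CPM against 3.70, 9.21, 5.14 and 6.60 CPM, also without overlap (1.40 ± 0.91, unadjusted p = 0.139 by edgeR's model). Over all genes tested the groups did not overlap for 538 (3.18%), of which 238 (1.41%) were higher and 300 (1.77%) lower with cocaine, so 2 of 25 higher genes here lie against a background of that size. The receptors gave values near 0, with 0.21 ± 0.50 for the cannabinoid receptor gene Cnr1, 0.06 ± 0.43 for the mu opioid receptor gene Oprm1 and 0.14 ± 0.50 for the delta opioid receptor gene Oprd1. Cartpt, the precursor of the cocaine- and amphetamine-regulated transcript, was at 1.60, 2.26 and 8.53 CPM against 0.2998, 0.252, 6.43 and 6.28 CPM, which is high in saline library 4 and non-escalating libraries 3 and 4 and low in the rest.

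The cyclic AMP response element, the palindrome TGACGTCA that CREB binds, was searched in RefSeq promoters of build GRCm38.p6, from 250 bases before to 50 bases after each gene's start. It was present in 549 of 27025 promoters (2.03%), in 4 of the 19 peptide-signalling genes with a promoter entry and in 2 of the 22 immediate early genes with one (Btg2 and Ppp1r15a). The 4 peptide genes are shown because they share the motif and include the 1 gene of the list at an unadjusted p under 0.05. Each line gives the 250 bases before the start, 5′ to 3′ on the gene's strand, with the motif in capitals. Pcsk1 lies at chr13:75089607-75089856 on the plus strand, Chgb at chr2:132781392-132781641 on the plus strand, Scg2 at chr1:79440027-79440276 on the minus strand and Cartpt at chr13:99900684-99900933 on the minus strand.
Pcsk1: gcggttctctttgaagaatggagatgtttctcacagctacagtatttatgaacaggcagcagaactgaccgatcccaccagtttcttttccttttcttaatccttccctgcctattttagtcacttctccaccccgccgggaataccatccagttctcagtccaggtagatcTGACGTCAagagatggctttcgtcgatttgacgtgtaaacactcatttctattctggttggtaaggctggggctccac
Chgb: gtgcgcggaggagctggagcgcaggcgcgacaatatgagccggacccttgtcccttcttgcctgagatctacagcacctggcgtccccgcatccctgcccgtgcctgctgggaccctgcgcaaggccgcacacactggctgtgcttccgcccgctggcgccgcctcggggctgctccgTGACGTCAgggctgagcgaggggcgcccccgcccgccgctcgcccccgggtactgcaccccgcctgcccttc
Scg2: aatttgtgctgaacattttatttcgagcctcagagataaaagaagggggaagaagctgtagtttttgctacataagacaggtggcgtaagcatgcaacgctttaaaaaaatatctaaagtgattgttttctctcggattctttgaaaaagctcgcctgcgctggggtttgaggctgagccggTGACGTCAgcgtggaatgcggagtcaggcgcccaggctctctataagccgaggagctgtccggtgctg
Cartpt: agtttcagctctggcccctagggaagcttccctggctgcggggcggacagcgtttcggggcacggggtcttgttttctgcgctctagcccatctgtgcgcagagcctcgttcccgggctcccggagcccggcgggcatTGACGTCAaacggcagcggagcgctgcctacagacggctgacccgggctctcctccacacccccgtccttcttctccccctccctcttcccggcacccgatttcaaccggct
The motif began 78 bases before the start in Pcsk1, 72 in Chgb, 68 in Scg2 and 112 in Cartpt. Chgb and Scg2, which encode granins of the dense-core vesicle, had log2 fold changes of 0.08 ± 0.38 and 0.20 ± 0.48, beside 3.15 ± 1.39 for Pcsk1 and -0.32 ± 1.10 for Cartpt. Scg2 was at 76.8, 98.0 and 104 CPM in saline and 83.8, 153, 98.3 and 91.5 CPM in non-escalating libraries, with overlap. The 2 immediate early genes with the motif overlapped too, with -0.19 ± 0.85 for Btg2 and 0.74 ± 0.63 for Ppp1r15a. A match is a description of the sequence and not a site shown to be bound.

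Immediate early genes, which neurons switch on within minutes of activity, showed no common direction. Of 28 tested, 0 were called and 0 reached an unadjusted p under 0.05, against 2.11% of all genes. Of these 28, 14 had positive log2 fold changes. The list median was -0.02, and -0.04 with the share of reads outside genes as a covariate. Egr1, a zinc finger transcription factor induced by activity, was at 850.5, 1069 and 958 CPM in saline and at 1021, 1378, 550 and 788 CPM in non-escalating libraries (-0.04 ± 0.52). Arc, a synaptic protein gene, was at 43.7, 46.3 and 40.9 CPM in saline and at 22.98, 24.4, 15.4 and 79.7 CPM in non-escalating libraries. For Arc, 3 cocaine libraries were below and library 4 above all saline libraries, so the log2 fold change of -0.29 ± 0.77 became -1.08 without library 4. Npas4, a transcription factor tied to calcium entry, was at 2.40, 1.64, 0.572 and 22.98 CPM in the cocaine libraries, against 2.19, 5.27 and 8.98 CPM in saline, so 2 cocaine libraries were below and library 4 above all saline libraries. Its difference was 0.34 ± 1.05, and -1.83 without non-escalating library 4. Fos had 1, 20 and 14 counts in saline and 0, 0, 0 and 16 counts in non-escalating libraries. A count of 0 in the first 3 of these allows up to 0.254, 0.352 and 0.457 CPM, on library sizes without TMM factors. Library 4 was thus the cocaine library with the most Arc, Npas4 and Fos.

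Fosb, Junb and Nr4a1, further transcription factors of this class, had log2 fold changes of -0.27 ± 0.65, -0.17 ± 0.69 and -0.45 ± 0.82. With the share of reads outside genes as a covariate these were -0.61, -0.43 and -0.84. In the same fit Egr1 and Arc moved to -0.48 and -0.55. Npas4 was at 0.25 there, and Fos at -1.51, beside -1.53 without the covariate. Dusp1, a phosphatase that shuts off MAP kinases, had 0.04 ± 0.36, and Homer1, a scaffold of metabotropic glutamate receptors, 0.21 ± 0.49. Cdk5, a kinase known for a place in the response to repeated cocaine, was at 21.2, 57.5 and 33.9 CPM against 56.0, 73.2, 34.7 and 46.3 CPM (0.49 ± 0.41, and 0.28 with the covariate). Bdnf was too low to test, with 0, 1 and 6 counts against 0, 0, 5 and 6.

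Among 21 circadian clock genes 14 had positive log2 fold changes, with a median of 0.13 (-0.02 with the share of reads outside genes as a covariate). Of the 21, 0 reached an unadjusted p under 0.05, against 2.11% of all genes. Per1 was at 109, 224.5 and 141 CPM in saline and at 211, 194, 218 and 201 CPM in non-escalating libraries. The 4 cocaine libraries lay close together, at 206 ± 10.6 CPM (SD, n = 4), inside the range of the saline libraries at 158 ± 59.5 CPM (SD, n = 3). The log2 fold change of Per1 was 0.38 ± 0.39 and that of Per2 0.40 ± 0.39. Among 14 glucocorticoid-responsive genes, a set that Per1 also belongs to, 10 were positive with a median of 0.12. This was the 1 pathway list of 23 whose median stayed above 0, at 0.14, with the share of reads outside genes as a covariate, though it was -0.05 without non-escalating library 3.

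**Figure D3:**
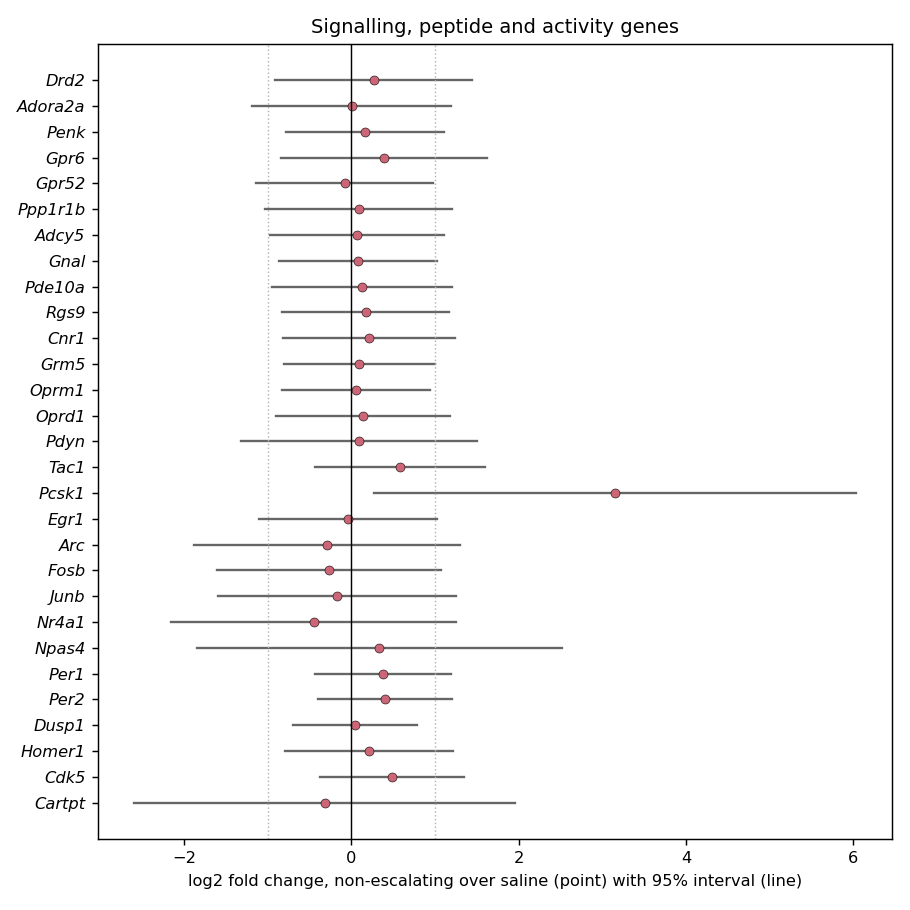
Log2 fold changes of non-escalating over saline (points) with 95% intervals (lines) are drawn for 29 receptor, signalling, peptide and activity genes, with dotted lines at a 2-fold change. All intervals but that of Pcsk1 (0.27 to 6.04) include 0, and most reach a 2-fold change on at least 1 side.

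The lowest unadjusted p-values belonged to genes of many kinds. On the higher side, Zdhhc3, a Golgi enzyme that attaches palmitate to synaptic proteins (chromosome 9, 123066160 to 123113205 on GRCm38), was at 38.9, 48.0 and 35.8 CPM in saline and at 80.1, 128, 63.6 and 53.8 CPM in non-escalating libraries. All 4 cocaine libraries lay above all 3 saline libraries, with means of 81.3 ± 32.8 (SD, n = 4) and 40.9 ± 6.34 (SD, n = 3). The log2 fold change was 0.99 ± 0.33 (95% interval 0.32 to 1.66, unadjusted p = 0.0058, adjusted p = 1 in edgeR), and 0.69 without non-escalating library 2. Zxdc, a zinc finger gene, was at 37.5, 21.3 and 35.01 CPM against 70.3, 63.6, 40.7 and 49.9 CPM (0.84 ± 0.31), again with no overlap. Zcchc3, a zinc knuckle gene, stood at 11.98, 19.2 and 8.53 CPM against 29.5, 25.4, 25.4 and 29.6 CPM (1.05 ± 0.40). Its 4 cocaine libraries differed little from each other.

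Ints2, a subunit of the Integrator complex that processes nascent RNA, was at 16.2, 14.3 and 16.8 CPM against 22.5, 82.9, 30.9 and 21.3 CPM (1.32 ± 0.43, and 0.66 without non-escalating library 2). Rundc1 had the lowest p of the higher genes named, at 90.7, 138.5 and 116 CPM against 184, 2897, 72.6 and 124 CPM. Its difference of 2.83 ± 0.85 rests on non-escalating library 2 and was 0.14 without it. Ift46 and Ift52, both parts of the particle that carries cargo into cilia, gave 1.61 ± 0.51 and 1.13 ± 0.43, with non-escalating library 2 the highest in both at 108 and 58.4 CPM. Ift46 overlapped, since non-escalating library 3 at 19.7 CPM lay below saline library 3 at 20.8 CPM, and its value was 0.82 when library 2 was left out. Of 27 cilium genes these were the 2 higher ones at an unadjusted p under 0.05, against 0.881% of all genes, and 13 were positive with a list median of -0.01. Another 1 at that threshold was lower: Sstr3, a somatostatin receptor of the cilium, had 14, 33 and 12 counts in saline and 4, 0, 1 and 3 counts in non-escalating libraries (-3.20 ± 1.48), with no overlap in CPM. Cacng1, a gamma subunit of the muscle calcium channel, was at most at 1.01 CPM in saline and at 24.8, 60.7, 5.29 and 1.60 CPM in non-escalating libraries (4.94 ± 1.75). Chaf1a, Dus4l, Pla2g12a and Wdr55 completed the 10 higher genes with the lowest p, with log2 fold changes from 1.29 to 2.56, and Dus4l was 1.27 without library 2. Six3os1, an RNA antisense to the transcription factor gene Six3, was at 9.45, 14.3 and 8.62 CPM against 59.75, 15.02, 19.0 and 17.98 CPM (1.37 ± 0.58). It overlaps Six3, whose own value was -0.12 ± 0.57, and since the strand setting of the counting is not given, reads of the 2 genes cannot be told apart. Zdhhc3, Zxdc, Rundc1, Chaf1a, Ints2 and Wdr55 also overlap a gene on the opposite strand. So do Casp9 and Obsl1, named below, and the same limit holds for each of these.

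On the lower side, Kit, a receptor tyrosine kinase that marks some GABAergic interneurons, had 155, 122 and 128 counts in saline and 0, 11, 26 and 39 counts in non-escalating libraries, or 13.1, 15.3 and 11.5 CPM against 0, 1.39, 3.72 and 4.15 CPM. Every cocaine library lay below every saline library, and the log2 fold change was -2.52 ± 0.95 (95% interval -4.49 to -0.55, unadjusted p = 0.0143, adjusted p = 1 in edgeR). The inputs held 41.5 and 36.4 CPM. Of the 5 GABAergic interneuron markers tested 1 was positive, with a median of -0.49 (-0.44 with the share of reads outside genes as a covariate). Pvalb gave -1.75 ± 1.90, Npy -0.49 ± 1.63, Sst -0.33 ± 0.61 and Nos1 0.02 ± 0.43, and for each of these 4 the groups overlapped. Casp9, the initiator caspase of the mitochondrial pathway, was at 31.4, 21.3 and 29.2 CPM against 11.4, 15.02, 16.3 and 16.5 CPM, with means of 27.3 ± 5.30 (SD, n = 3) and 14.8 ± 2.36 (SD, n = 4). Its log2 fold change was -0.88 ± 0.35, and from -1.05 to -0.77 as single libraries were left out. Uhrf2, a ubiquitin ligase that reads modified cytosine, was at 58.4, 38.1 and 48.0 CPM against 28.6, 26.2, 23.3 and 30.7 CPM (-0.82 ± 0.36). Ybx3, a Y-box RNA-binding protein gene, was at 40.5, 40.1 and 54.7 CPM against 23.2, 35.7, 25.1 and 26.3 CPM (-0.71 ± 0.31). Fance and Aig1, at -1.18 ± 0.47 and -1.01 ± 0.41, completed the 5 lower genes with the lowest p among those of at least 20 CPM whose groups did not overlap.

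Inpp1, a phosphatase of inositol phosphates, was at 15.9, 9.15 and 23.4 CPM against 0.500, 0.126, 4.57 and 6.38 CPM (-2.48 ± 0.89). Anks6, a protein of the cilium base, gave -1.81 ± 0.59, and between -2.54 and -1.31 as single libraries were left out. Obsl1, a cytoskeletal adaptor gene, gave -1.51 ± 0.57, and Zfp956, Mettl13, Commd10 and Lin54 had -1.06 to -1.54. Mettl13 overlapped between the groups and was -0.67 without saline library 1, where it was highest. Among genes of at least 20 CPM the groups did not overlap for 95 higher genes (1.43%) and 79 lower genes (1.19%) of 6666. The single genes above were chosen for a low p or for non-overlap in these same libraries. Their lack of overlap is therefore no separate result beside those shares. Some of them, such as Kit and Inpp1, also had means below 20 CPM.

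**Figure D4:**
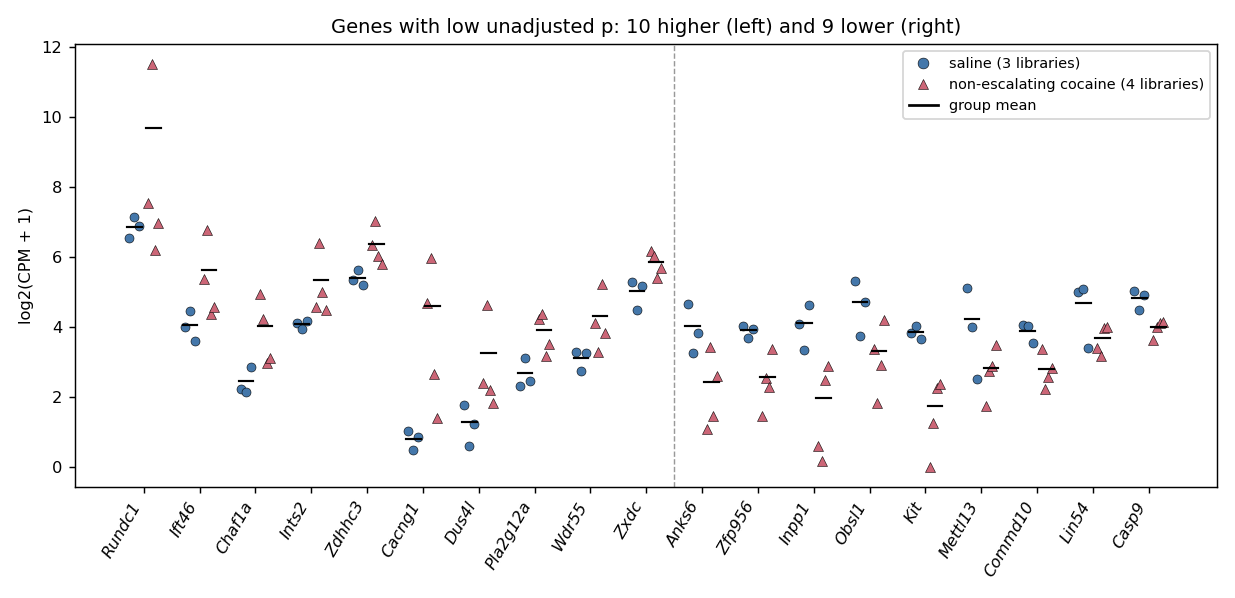
Log2(CPM + 1) is plotted for 10 higher genes (left) and 9 lower genes (right) among those with the lowest unadjusted p, in 3 saline libraries (circles) and 4 non-escalating libraries (triangles), with a bar at the log2 of each group's mean CPM + 1. Rundc1 has 1 cocaine library at 2897 CPM and the others at 72.6 to 184 CPM, while Kit has all cocaine libraries at or below 4.15 CPM and all saline libraries at or above 11.5 CPM.

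Chromatin enzymes, which write and erase marks on histones and DNA, had 0 of 40 genes at an unadjusted p under 0.05, against 2.11% of all genes. The list median was -0.04. Sirt2, a deacetylase, was at 118, 98.8 and 132 CPM in saline and at 73.9, 76.8, 52.7 and 84.2 CPM in non-escalating libraries, with no overlap (-0.69 ± 0.35, unadjusted p = 0.0569 by edgeR's model). Tet1, which oxidises methylated cytosine, was also lower in every cocaine library, at 70.6, 67.4 and 65.0 CPM against 60.1, 24.9, 52.0 and 56.6 CPM (-0.48 ± 0.34). Sirt2 and Tet1 were the 2 of 40 genes whose groups did not overlap, beside 1.77% of all genes that were lower without overlap. Kdm5c, a histone demethylase, was at 57.8, 65.6 and 66.7 CPM against 116, 114, 68.4 and 59.6 CPM (0.50 ± 0.26), with overlap through library 4. For 21 of the 40 genes the interval stayed within a 2-fold change.

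No glutamate or GABA receptor gene tested reached an unadjusted p under 0.05, against 2.11% of all genes. Of 25 AMPA, NMDA and kainate receptor genes 13 were positive with a median of 0.00, of 22 GABA genes 15 with a median of 0.07 and of 26 postsynaptic density genes 21 with a median of 0.16. With the share of reads outside genes as a covariate these medians were -0.31, -0.18 and -0.14. Members of the first list ran from -1.13 to 1.57, and the interval stayed within a 2-fold change for 8 of 25, 7 of 22 and 8 of 26 genes. Gria1 and Gria2, subunits of the AMPA receptor, gave 0.005 ± 0.45 and 0.11 ± 0.38. Grin1, the obligatory NMDA receptor subunit, was at 359, 635 and 373 CPM against 647, 976, 304 and 402 CPM (0.35 ± 0.54). Its highest values were in saline library 3 and non-escalating libraries 1 and 2. Among 37 actin and spine regulators 30 were positive, with a median of 0.20 (-0.02 with the covariate). Arpc4, a subunit of the actin-nucleating Arp2/3 complex, was above saline in every cocaine library, at 25.9, 31.8 and 20.3 CPM against 32.0, 39.6, 36.3 and 36.9 CPM (0.48 ± 0.33). It was the 1 gene of these 37 without overlap, beside 1.41% of all genes that were higher without overlap. Tiam1, an activator of the Rac GTPase, gave 0.48 ± 0.25 (unadjusted p = 0.069 by edgeR's model) with 1 overlapping cocaine library.

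**Figure D5:**
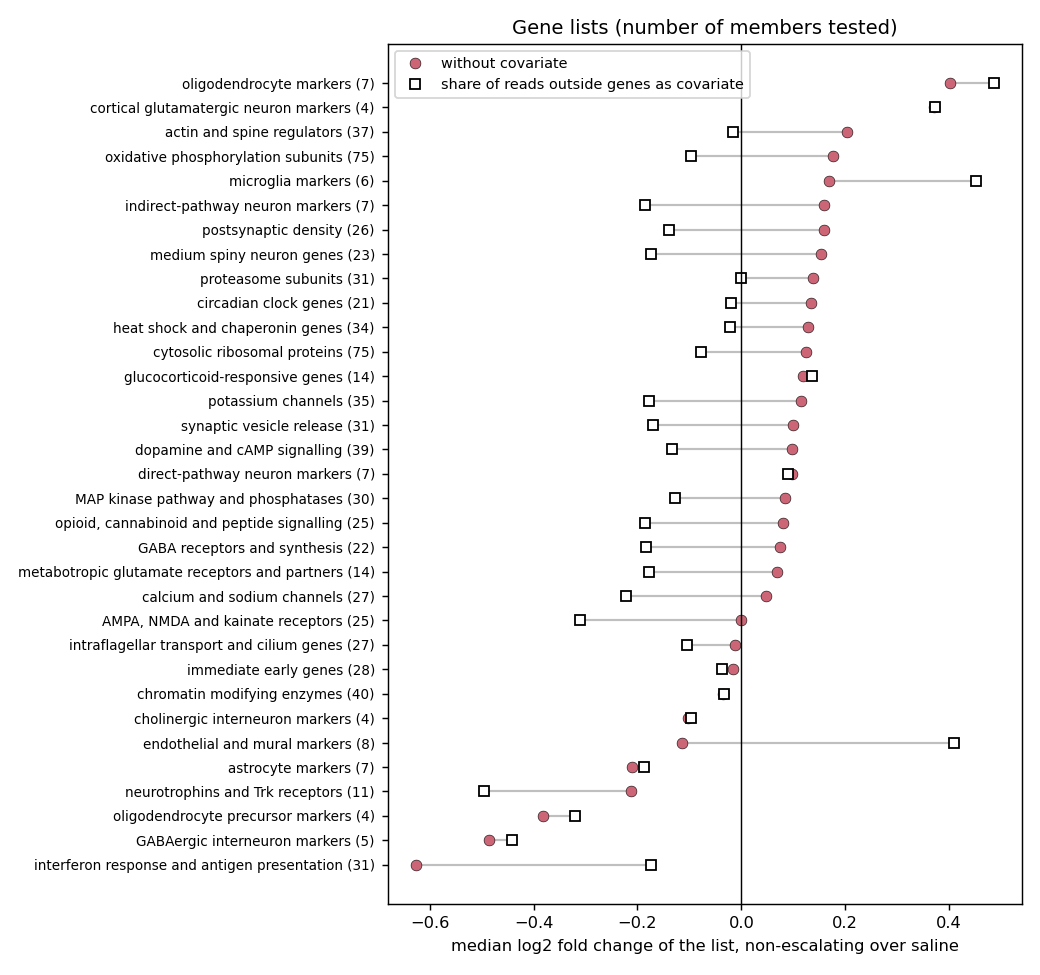
For each of 33 gene lists the median log2 fold change of non-escalating over saline is drawn without a covariate (filled circles) and with the share of reads outside genes as a covariate (open squares), with the number of members tested in brackets. Of the 23 pathway lists 18 medians lie above 0 without the covariate and 1 with it.

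Most list medians lay slightly above 0, and that lean moved with the share of reads outside genes. Of the 23 pathway lists 18 had positive medians, between -0.63 and 0.20 in all, but with the share of reads outside genes as a covariate 1 of 23 did. Across all 33 lists 19 medians changed sign with that covariate, while the median over all genes was -0.002 without it and -0.04 with it. Over the 6666 genes of at least 20 CPM the median went from 0.07 to -0.05. That background thus also leaned above 0 and changed sign. The 23 medium spiny neuron genes went from 0.15 (21 positive) to -0.17, and 75 subunits of oxidative phosphorylation from 0.18 (57 positive) to -0.10. Endothelial and mural markers went the other way, from -0.12 to 0.41. Interferon and antigen presentation genes were the list farthest below 0, at -0.63 with 4 of 31 positive, and at -0.17 with the covariate. Their summed level was 1745, 107 and 641 CPM in saline libraries 1, 3 and 4 and 148.5, 89.7, 1071 and 410 CPM in non-escalating libraries. The 4 libraries with the highest sums, saline libraries 1 and 4 and non-escalating libraries 3 and 4, were also the 4 highest in vascular markers, and the part of vascular cells in these values was not tested. The median of this list was between -1.78 and 0.34 as single libraries were left out.

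The same contrast was measured in other libraries after withdrawal, with 9 non-escalating and 5 saline libraries, so the 2 differences share no library. Some withdrawal libraries carry the same group and replicate number in both sets of library numbers, and the labels do not say whether those come from different mice, so n there counts libraries. There too edgeR's quasi-likelihood test with Benjamini-Hochberg adjustment called 0 of 16910 genes (0.0%), with 883 (5.22%) at an unadjusted p under 0.05, and DESeq2 called 1 gene, Eps8l3. The difference between the cocaine effects without and with withdrawal was called for 0 genes (0.0%) by edgeR and for 2 by DESeq2, with 345 (2.04%) at an unadjusted p under 0.05 in edgeR. The 5.22% is close to a share of 0.05, and the 2.04% is below it. Of the 20 genes with the lowest p, 10 in each direction, 13 (65%) had the same sign after withdrawal, against 10177 of all 16910 genes (60.2%). The share was 65.7% over the 6666 genes of at least 20 CPM. It was 58.3% over the 357 genes at an unadjusted p under 0.05 by edgeR's test without withdrawal. Kit was at 10.7 ± 6.75 CPM (SD, n = 5) after saline withdrawal and 5.41 ± 3.42 CPM (SD, n = 9) after cocaine withdrawal (log2 fold change -0.96 ± 0.67). Zdhhc3 was at 49.2 ± 9.33 and 53.0 ± 13.5 CPM in the same groups (0.10 ± 0.24), Ints2 at 29.9 ± 7.46 and 19.7 ± 5.24 CPM (-0.59 ± 0.30), and Sirt2 at 49.0 ± 9.80 and 73.5 ± 32.4 CPM (0.55 ± 0.26). For Ints2 and Sirt2 the sign was therefore opposite to that without withdrawal, with differences of 1.91 ± 0.53 and -1.24 ± 0.43 that did not pass correction (adjusted p = 1 and 1 in edgeR's quasi-likelihood test).

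Escalating cocaine mice, compared with the same 3 saline libraries, gave values that can only be set beside those above because the controls are shared. In the 2 escalating libraries Kit was at 0.324 and 3.55 CPM, Casp9 at 11.2 and 19.6 CPM, Zdhhc3 at 32.2 and 57.7 CPM and Pcsk1 at 6.93 and 0.423 CPM. Zxdc was at 43.4 and 57.4 CPM there, above each saline library. Per1 was at 428 and 211 CPM and Egr1 at 2542 and 1004 CPM, with the first escalating library high in both.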

How the data were processed

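Ribosome-bound RNA of 7 immunopurified libraries was compared, and the other immunopurified libraries of the study entered the same fit. The authors deposited 1 table per library with raw counts for each gene symbol. Per the submitters' processing notes, STAR 2.0.0e aligned the reads, mm10 was the genome build and HTSeq made the counts. No annotation, strand setting or library kit is given in the sources used here, so reads outside genes may include introns or the other strand. The tables hold 2 annotations (32657 genes in 16 tables, 32531 in 10), which were joined on 31735 shared symbols and 241 renamed ones to 31976 genes, with 99.5% to 99.9% of each library's gene counts. HTSeq's 5 summary entries per table entered the shares of reads and nothing else. No library pair within the groups compared was identical (9 pairs, chi-square per degree of freedom 38.7 to 128.5).

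Counts were fitted in R 4.3.3 with edgeR 4.0.16 (TMM, filterByExpr, quasi-likelihood F test, terms for group and library set, 23 immunopurified libraries, 16910 genes, 17 residual degrees of freedom) and adjusted by Benjamini-Hochberg over all genes, with a threshold of 0.05. Alternatives were DESeq2 1.42.0, limma 3.58.1 voom with library weights, RLE factors, no low-count filter, the 7 libraries alone, a replicate block, the share of reads outside genes as a covariate and leaving out each library. Each SE of a log2 fold change was taken as its absolute value divided by the square root of the F statistic. The intervals were built from that SE with the t distribution. Both therefore restate the test, and their accuracy for very small fold changes or for genes with empty libraries, such as Fos, was not tested. CPM used TMM-scaled library sizes, except in the limits given for genes without counts, and log2 CPM added a prior of 2 counts. GENCODE M21 (GRCm38) gave coordinates and overlaps of genes only. The fit was also run on simulated counts. These had a fixed dispersion and no variation shared by many genes of a library. That run therefore cannot show how the fit behaves on the present libraries.

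Genes named are the 10 per direction with the lowest p among genes of at least 5 CPM with a symbol that is no clone name, the 5 per direction of at least 20 CPM with non-overlapping groups and the lowest p, fixed sets of identity and cocaine-response genes, and the lowest-p members of each list, up to 4. Some genes that these rules select are left out of the text. Further list members and the promoters with the motif were chosen after their values were seen. The groups, lists and rules were chosen with earlier results of these data known. A share of mitochondrially encoded genes was planned, but the tables list none, so 3 library measures were tested.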

Additional observations from a re-analysis of the deposited data

Results flagged for a closer look

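Dixon's test was applied to the 4 non-escalating libraries for 47 genes and measures, on values that were not log-transformed. Its rate of about 1 flag in 20 groups holds for normally distributed values, which CPM need not be. Some of the genes were also chosen for a low p in these same libraries. The flags therefore only describe single libraries. The test singled out 6 genes, in each of which 1 library lay far above the other 3. Non-escalating library 2 stood apart in Rundc1 (2897 CPM, next highest 184), Ints2 (82.9 CPM, next 30.9) and Dus4l (23.3 CPM, next 4.20). Non-escalating library 4 stood apart in the activity-induced genes Arc (79.7 CPM, next 24.4), Npas4 (22.98 CPM, next 2.40) and Fos (1.70 CPM, with 0 in the other 3).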

How the results depend on the processing

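The count of 0 genes called for non-escalating against saline held under each alternative but DESeq2, which called 2. DESeq2 likewise called 2 genes for the difference from the withdrawal comparison and 1 gene for the withdrawal comparison itself. Same-numbered saline and cocaine libraries had residual correlations of -0.288, -0.538 and 0.151, and pairs with different numbers had -0.318 to 0.437. These cannot decide whether the libraries were paired, because the residuals of each small group sum to 0. A replicate block called 0 genes, with 134 at an unadjusted p under 0.05 in place of 357. Without the low-count filter there were 557 such genes, and with the 7 libraries alone 156. None of the 43 single genes followed was called by any alternative. With the share of reads outside genes as a covariate, log2 fold changes changed sign for 8 of them: Drd2 (-0.18), Adora2a (-0.48), Penk (-0.19), Gpr6 (-0.11), Rpl10a (-0.0622), Chat (-0.16), Dusp1 (-0.13) and Homer1 (-0.19). Limma voom with library weights changed it for Adora2a (-0.11), Junb (0.17), Arc (0.16), Per2 (-0.0773) and Homer1 (-0.0364), and Adora2a also changed with DESeq2 (-0.0103), RLE factors (-0.0103) and the replicate block (-0.0845). Leaving out single libraries gave ranges that include 0 for Drd2 (-0.084 to 0.54), Adora2a (-0.18 to 0.20), Gpr52 (-0.44 to 0.0912), Rpl10a (-0.0427 to 0.50), Drd1 (-0.20 to 0.77), Pdyn (-0.19 to 0.66), Chat (-0.21 to 0.76), Junb (-0.35 to 0.12), Egr1 (-0.29 to 0.15), Npas4 (-1.83 to 0.89), Dusp1 (-0.0758 to 0.17), Homer1 (-0.0438 to 0.48) and Cartpt (-0.86 to 0.78). The cause of these sign changes was not tested. The difference in reads outside genes ran from -13.1 to -2.89 percentage points as libraries were left out. With 3 against 4 libraries the smallest exact p is 0.0286, and depth limits the genes of a few counts per library.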
